A study of Rattus norvegicus with 24 samples.

Results

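The AP-1 subunit genes Fos, Fosb, Fosl1, Fosl2, Jun, Junb and Jund, together with Atf3, were followed in RNA from rat quadriceps muscle. They were taken by gene symbol and are 8 of the 21067 genes in the deposited table. The choice was made with earlier results of these data known, so it is not independent of them. All 8 were among the 14772 genes whose mean FPKM was 0.1 or more that entered the tests. FPKM is a fragment count scaled by transcript length and by the mapped fragments of the library, so it can be compared between genes. The study sequenced polyadenylated RNA from 24 Sprague-Dawley rats, males and females that arrived at 6 weeks of age, with 6 libraries in each of 4 groups. The control group, labelled blank, was fed normally without treadmill training. The treadmill group ran on a treadmill for 7 weeks and then to exhaustion. Catgut group 1, labelled catgut embedding acupoint 1, had collagen thread embedded at the acupoints Bai Hui, Han Gou, Qian Shen, Qiang Feng, Xie Qi and Yang Wa, and then underwent the same training and the same run. Catgut group 2, labelled catgut embedding acupoint 2, had thread embedded at these acupoints plus Fei Shu before the same training and run.

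The rats were killed after the final session, but the interval between the run and sampling is not given in the sources used here. The trained groups differ from the control group in the training, the exhausting run, the aversive tail stimulus of the treadmill and possibly the time of sampling, and these cannot be told apart. No untrained group with catgut was analysed here. The catgut groups also had ether anaesthesia and needle puncture for the embedding. No group had these without thread, so the parts of the embedding procedure cannot be told apart.

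AP-1 is a dimer of basic leucine zipper proteins that binds DNA at a short palindromic site. Fos proteins need a Jun partner to bind, whereas Jun proteins also pair with each other and with ATF proteins. Many of the genes are immediate-early genes: MAP kinases, serum response factor and CREB, already present in the cell, switch them on within minutes of a stimulus, and their short-lived transcripts fall again soon after. In skeletal muscle they are known to respond to contraction, stretch and injury. Atf3 encodes a CREB-family zipper protein that is induced by many stresses and can pair with Jun proteins.

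Promoters of 5 members, Fosb, Fosl1, Fosl2, Junb and Jund, were found in RefSeq (build GRCr8) as windows of 300 bases, from 250 before to 50 after the gene start. The windows of Junb, the member with the smallest p after training, of Jund, which holds the longest motif, and of Fosl1, the member with the lowest level, are shown. Capitals mark the cAMP response element TGACGTCA (CRE) and its shorter form TGACG, searched on both strands, so that CGTCA is the shorter form read on the other strand. Junb lies at chr19:40080876-40081175 on the plus strand, Jund at chr16:18769722-18770021 on the minus strand and Fosl1 at chr1:212183635-212183934 on the plus strand.
Junb: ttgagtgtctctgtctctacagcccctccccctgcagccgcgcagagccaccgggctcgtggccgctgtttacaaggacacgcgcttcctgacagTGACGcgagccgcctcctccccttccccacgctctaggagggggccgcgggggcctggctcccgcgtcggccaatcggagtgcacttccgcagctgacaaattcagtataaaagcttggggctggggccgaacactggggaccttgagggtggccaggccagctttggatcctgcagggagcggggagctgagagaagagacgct
Jund: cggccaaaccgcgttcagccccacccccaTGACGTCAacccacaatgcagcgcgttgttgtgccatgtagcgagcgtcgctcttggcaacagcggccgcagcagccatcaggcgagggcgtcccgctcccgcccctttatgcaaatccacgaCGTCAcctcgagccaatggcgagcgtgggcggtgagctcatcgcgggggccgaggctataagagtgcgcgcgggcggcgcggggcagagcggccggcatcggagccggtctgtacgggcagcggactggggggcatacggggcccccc
Fosl1: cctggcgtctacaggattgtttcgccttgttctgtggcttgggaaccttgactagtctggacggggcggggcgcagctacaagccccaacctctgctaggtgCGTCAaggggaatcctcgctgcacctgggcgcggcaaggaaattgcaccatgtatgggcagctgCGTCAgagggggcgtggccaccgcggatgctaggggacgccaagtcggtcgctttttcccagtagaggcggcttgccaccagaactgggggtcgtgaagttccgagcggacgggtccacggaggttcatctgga

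The Jund window held the full CRE at -221 to -214 from the gene start, a motif found in 1.83% of 33469 RefSeq promoters of the same length. Each strand of that CRE also contains the shorter form, and a separate copy of the shorter form lay at -98 to -94. Junb held the shorter form at -155 to -151 and Fosl1 at -148 to -144 and at -84 to -80, a motif present in 21.2% of promoters. The AP-1 site was searched in a loose form, TGANTCA, with any base in the middle. This form, in 7.33% of promoters, and the CArG box bound by serum response factor, in 1.64%, were not found in any of the 5 windows. The Fosb and Fosl2 windows held none of the motifs searched. These matches are letters in a window and say nothing of binding.

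The libraries held between 45945938 and 78278080 counts, with a median of 75150847 in the control group and 60688147, 56332834.5 and 62100481 in the treadmill group, catgut group 1 and catgut group 2. The commonest counts above 0 were 4 and 8, so 1 count may not be 1 fragment, and the sources used here do not say how the counts were made. The lowest count of any member in any library was 18. Skeletal muscle markers summed to between 67221.1 and 91727.9 FPKM in all 24 libraries, so the labelled tissue was present throughout, although the extraction label speaks of an adipose type. Adipocyte markers summed to between 309.715 and 677.113 FPKM, most of it from Fabp4. Its mean was 416 FPKM in the control group and 429, 477 and 566 in the treadmill group, catgut group 1 and catgut group 2. Adipoq had means of 8.06 FPKM in the control group and 2.92, 1.46 and 2.44 in those groups. Against control the 6 markers had a median log2FC of -0.85, -1.73 and -0.99, with 2, 1 and 1 of them above 0. Control replicate 2 and treadmill replicate 3 stood apart by liver markers, whose sum was 244 and 367 FPKM against at most 0.954 in the other controls and 27.9 in the other treadmill libraries, and at most 0.862 in the catgut groups. The liver marker sum passed 1 FPKM in 1 control library, in 5 treadmill libraries and in 0 of each catgut group. Its median was 0.530 FPKM in the control group and 5.46 in the treadmill group, and 0.336 and 0.636 in catgut groups 1 and 2. Over the 24 libraries Apoa2, Fgb, Ttr, Fgg and Apoc3 had a median of 0. The leukocyte marker sum was highest in treadmill replicate 2, at 115 FPKM, and its median was 25.4 FPKM in the control group, 37.2 in the treadmill group, 30.5 in catgut group 1 and 28.5 in catgut group 2. All 9 tested leukocyte markers had a higher level in treadmill than in control (median log2FC 0.57, with 1 past the criterion), and all 9 a lower level in both catgut groups than in treadmill (median log2FC -0.73 and -0.52, with 0 past it). The sum of the red cell markers had a median of 505 FPKM in the control group. In the treadmill group, catgut group 1 and catgut group 2 it was 763, 910 and 891 FPKM. Against control 4, 3 and 3 of the 4 tested red cell markers were higher by the criterion, as were 1.77%, 2.32% and 3.52% of all genes. The median log2FC of these markers was 1.00, 1.04 and 1.14. The part of these cells in the results below was not tested, and in bulk muscle a change in the number of cells of a type and a change in RNA per cell cannot be told apart.

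The control group had the lowest mean FPKM of all 8 genes. In the treadmill group and both catgut groups every library lay above the control median for every member. No member was free of overlap with the control libraries, as 0.325%, 0.318% and 0.724% of all genes were with higher values in the treadmill group, catgut group 1 and catgut group 2. Summed over the 8 genes, the lowest, median and highest FPKM were 61.2, 106 and 274 among the controls and 163, 266 and 522 among the treadmill libraries. The sums were 153, 280 and 512 in catgut group 1 and 209, 320 and 436 in catgut group 2.

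**Figure D1:**
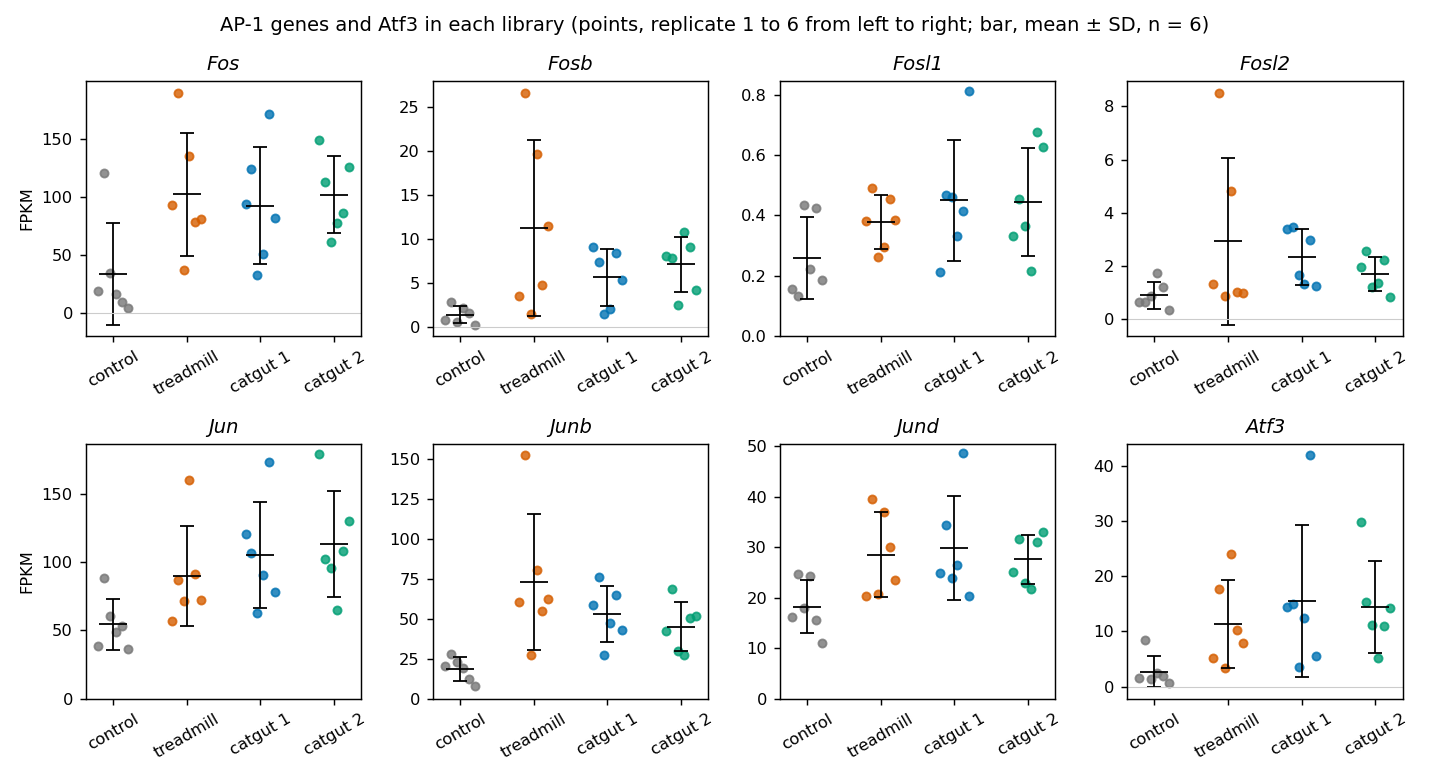
FPKM of each of the 8 genes in each library on a linear axis, 1 panel per gene, with points for the 6 libraries of each group in replicate order from left to right, and bars for the mean ± SD. The control mean is the lowest in every panel, and control replicate 2 lies well above the other controls for Fos (121 FPKM) and Atf3 (8.38 FPKM).

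A difference was judged in 2 ways. The adjusted p is from edgeR's quasi-likelihood test on the deposited counts, corrected over all 14772 genes. The study's criterion takes a ratio of group mean FPKM over 1.5 in either direction with an unadjusted p under 0.05. The log2 fold changes (log2FC) below are the model's, with their standard error (SE), and all exact permutation tests are two-sided on log2(FPKM + 1) over the 924 arrangements of 12 libraries, where the smallest possible p is 0.00216.

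Treadmill against control asks which genes differed after training and the exhausting run. All 8 members had a higher mean in the treadmill group, with a median log2FC of 1.62 against 0.00 over all genes tested, of which 49.7% had a log2FC above 0. By the study's criterion 7 of 8 were higher, all but Fosl1 and with Fos only narrowly, where 2.85% of all genes passed in either direction and 1.77% as higher. No member reached an adjusted p of 0.05 in edgeR, a level that 0.0542% of all genes reached, although 7 had an unadjusted p under 0.05, as did 9.12% of all genes. DESeq2 called 2 members at an adjusted p of 0.05, Fosb and Junb, and limma called 0. Over all 14772 genes DESeq2 called 112 and limma 6, where edgeR called 8. By the exact permutation test 6 members had p under 0.05, all but Fosl1 and Fosl2, against 7.39% of all genes, and none held after adjustment over all genes, the smallest adjusted value being 0.598. That test cannot pass such an adjustment here, since the smallest adjusted p of any gene was 0.484.

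Catgut group 1 against control and catgut group 2 against control share their control libraries with that comparison and so are not independent of it. In catgut group 1, 6 of 8 members were higher by the criterion, all but Fos and Fosl1, against 4.62% of all genes in either direction and 2.32% as higher. In catgut group 2, 7 of 8 were higher, all but Fosl1, against 5.95% of all genes and 3.52% as higher. All 8 had a log2FC above 0 in both, as 47.9% and 49.3% of all genes did. The median log2FC of the 8 was 1.42 and 1.18, against -0.01 and 0.00 over all genes tested. No member passed an adjusted p of 0.05 in edgeR in either comparison, where 0.0203% and 0.508% of genes did, and 6 and 7 members had an unadjusted p under 0.05, as did 9.84% and 16.4% of all genes. DESeq2 called 5 members in each at that level, and limma on log2(FPKM + 1) called 0 and 2. Over all 14772 genes DESeq2 called 162 and 695 and this limma fit 8 and 70, where edgeR called 3 and 75. By the exact permutation test 7 members had p under 0.05 in each, all but Fosl1, against 7.65% and 13.9% of all genes, and the smallest adjusted values of a member were 0.533 and 0.208.

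**Figure D2:**
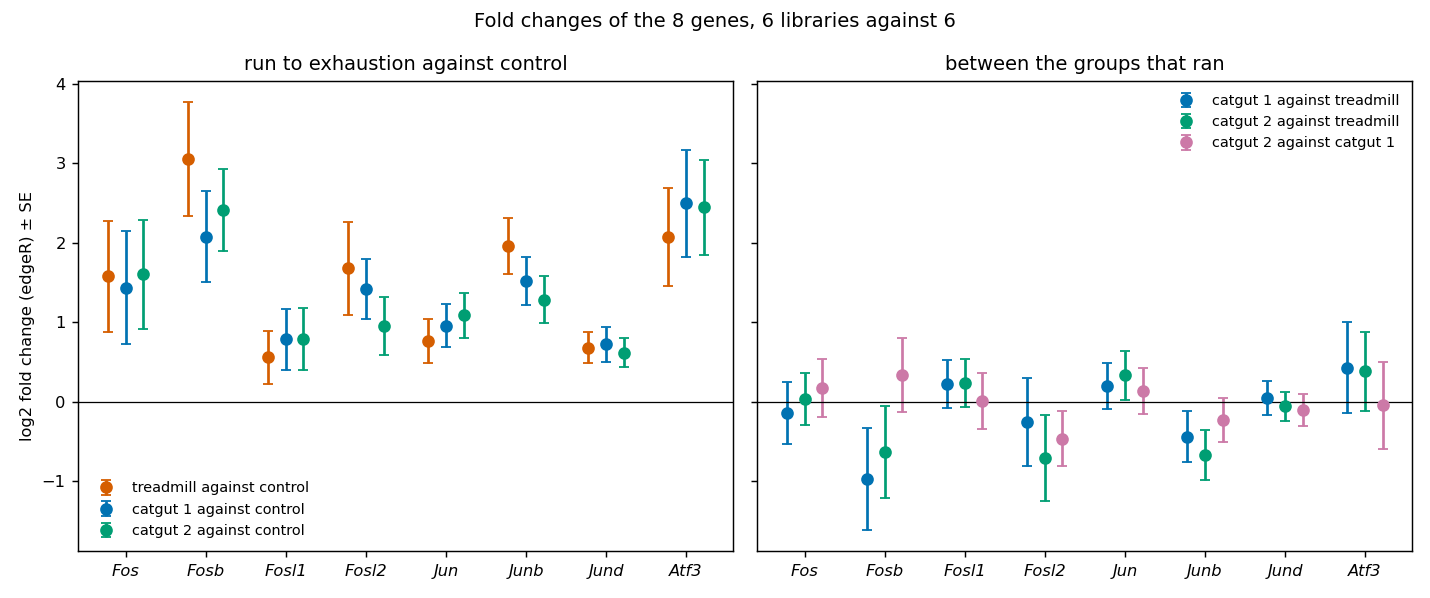
Log2 fold change of each gene in the 6 comparisons, from edgeR, with bars for ± 1 SE (n = 6 against 6). Against control all points lie above 0, from 0.56 to 3.05, whereas among the trained groups they lie on both sides of 0, from -0.97 to 0.42.

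Fos, the founding member and partner of the Jun proteins, lies on chromosome 6 at 109300433 to 109303299 on the plus strand, in the coordinates of the deposited table, whose build is not given in the sources used here. Its lowest, median and highest FPKM were 3.70, 17.4 and 121 in the control group, 36.7, 86.9 and 190 in the treadmill group, 32.5, 87.6 and 172 in catgut group 1 and 60.9, 99.5 and 149 in catgut group 2. The control group alone spanned 32.7-fold from its lowest to its highest library. Its highest value, in replicate 2, stood against 33.8 in the next control, and 2 libraries of each trained group exceeded it.

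In the treadmill group the mean FPKM of Fos was 102 ± 53.2 (SD, n = 6), against 33.7 ± 44.0 in the control group. The log2FC was 1.57 (SE 0.70, exact permutation p = 0.0173, edgeR adjusted p = 0.543). In catgut group 1 it was 1.43 (SE 0.71, exact permutation p = 0.0260, edgeR adjusted p = 0.541). The ratio of means there was 2.74, but Fos missed the criterion because its edgeR p was 0.0657 before adjustment, although its exact permutation p was under 0.05. Catgut group 2 gave 1.60 (SE 0.68, exact permutation p = 0.0108, edgeR adjusted p = 0.263). The call for Fos was fragile. Of 12 fits that left out 1 library each, it passed the criterion in 2 for the treadmill group (without control replicate 2 and without treadmill replicate 3), 2 for catgut group 1 and 5 for catgut group 2. With robust fitting it missed it in the treadmill group too. All 3 log2FC were larger without control replicate 2. They then were 2.68, 2.53 and 2.70, with an edgeR adjusted p of 0.126, 0.140 and 0.0362. The last of these passed the threshold that it missed with the library.

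Fosb, whose truncated splice form accumulates in repeatedly stimulated nerve cells, lies on chromosome 1 at 80214494 to 80221710 on the minus strand. Its FPKM was 0.265, 1.18 and 2.78 (lowest, median, highest) in the control group and 1.47, 8.10 and 26.6 in the treadmill group. In catgut group 1 the values were 1.41, 6.34 and 9.14, and in catgut group 2 they were 2.49, 8.0 and 10.8. In 5 of 6 treadmill libraries, 4 of 6 in catgut group 1 and 5 of 6 in catgut group 2, Fosb exceeded every control. It had the largest log2FC of the 8 genes in the treadmill group, 3.05 (SE 0.71, exact permutation p = 0.0108, edgeR adjusted p = 0.337). The log2FC was 2.08 in catgut group 1 (SE 0.58, edgeR adjusted p = 0.303) and 2.41 in catgut group 2 (SE 0.52, edgeR adjusted p = 0.0669). The treadmill group was also the most scattered, with treadmill replicates 2 and 4 at the top and replicate 3 at the bottom, and an SD of 10.1 around a mean of 11.2. The file counts the gene as a whole, so the splice forms were not separated.

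Fosl2 encodes a Fos protein without a strong activation domain and lies on chromosome 6 at 25598936 to 25616995 on the minus strand. It was a low-level transcript, at 0.334, 0.755 and 1.74 FPKM (lowest, median, highest) in the control group and 0.886, 1.18 and 8.51 in the treadmill group. Catgut group 1 had 1.26, 2.32 and 3.45, and catgut group 2 had 0.847, 1.67 and 2.55. The treadmill median thus lay below both catgut medians while its mean, 2.92 ± 3.12 (SD, n = 6), was the highest of the 4 groups. The log2FC against control was 1.67 in the treadmill group (SE 0.58, edgeR adjusted p = 0.478), 1.41 in catgut group 1 (SE 0.38, adjusted p = 0.302) and 0.95 in catgut group 2 (SE 0.36, adjusted p = 0.218). Without treadmill replicate 2, the library with the highest leukocyte marker sum, the first of these was 1.11 (edgeR adjusted p = 0.347). The exact permutation p on log2(FPKM + 1) was 0.104 in the treadmill group, 0.0130 in catgut group 1 and 0.0433 in catgut group 2.

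Fosl1, which encodes Fra-1 and lies on chromosome 1 at 220826560 to 220835066 on the plus strand, stayed below 1 FPKM in every library, with counts from 18 to 91. Its mean FPKM was 0.259 ± 0.135 in the control group, 0.378 ± 0.0882 in the treadmill group, 0.450 ± 0.201 in catgut group 1 and 0.446 ± 0.178 in catgut group 2 (SD, n = 6 each). The log2FC against control was 0.56, 0.78 and 0.79 (SE 0.33, 0.38 and 0.39), and the exact permutation p was 0.0931, 0.0714 and 0.0758. The edgeR adjusted p was 0.628, 0.534 and 0.336. The 95% intervals ran from -0.16 to 1.28, from -0.04 to 1.61 and from -0.05 to 1.63. With all libraries Fosl1 passed neither rule in any comparison with control. With 1 of them left out it passed the criterion in 2, 3 and 3 of 12 fits. Its estimate was imprecise, and its intervals covered both no difference and a doubling of the level.

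Jun was the most abundant of the 8, at a mean of 90.8 FPKM over the 24 libraries, a level at or above that of 95.5% of the genes tested, and it lies on chromosome 5 at 114011189 to 114014277 on the minus strand. Its protein, c-Jun, is activated by JNK and is the classical partner of Fos. In the control group the lowest, median and highest FPKM were 36.7, 51.3 and 88.4, and in the treadmill group 56.9, 79.7 and 160. Catgut group 1 had 62.6, 98.7 and 173, and catgut group 2 had 65.1, 105 and 179. The fold differences were smaller than those of Fos, and the control level was already high. The log2FC against control was 0.76 (SE 0.28, exact permutation p = 0.0325, edgeR adjusted p = 0.486) in the treadmill group. It was 0.95 (SE 0.27, adjusted p = 0.310) in catgut group 1 and 1.09 (SE 0.28, adjusted p = 0.111) in catgut group 2. The treadmill value rested in part on treadmill replicate 4. Without it the log2FC was 0.50 with a ratio of means of 1.39, which misses the criterion.

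Junb encodes a Jun protein that often restrains c-Jun and is known in muscle for its part in maintaining fibre size. It lies on chromosome 19 at 26092974 to 26094756 on the minus strand in the table's coordinates, which belong to another build than the promoter shown above. Its lowest, median and highest FPKM were 8.31, 19.9 and 28.4 in the control group, 27.7, 61.6 and 153 in the treadmill group, 27.2, 52.9 and 76.6 in catgut group 1 and 27.6, 46.6 and 68.9 in catgut group 2. In each trained group 5 of 6 libraries exceeded every control, and the remaining library, at 27.7, 27.2 and 27.6 FPKM, lay just under the highest control at 28.4.

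The log2FC of Junb against control was 1.96 in the treadmill group (SE 0.35), and its edgeR p of 0.000101 was the 11th smallest of all genes tested, with an adjusted p of 0.125. It was 1.52 (SE 0.30, edgeR adjusted p = 0.141) in catgut group 1 and 1.28 (SE 0.30, edgeR adjusted p = 0.0784) in catgut group 2. The exact permutation p was 0.00433 in all 3 comparisons (n = 6 against 6). When all 4 groups shared 1 estimate of the spread, the treadmill value had an edgeR adjusted p of 0.0113, and without treadmill replicate 3 it had 0.0465. The call for Junb thus changed with the estimate of the spread and with 1 library.

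Jund encodes the Jun protein that is expressed steadily in resting cells and lies on chromosome 16 at 20485029 to 20486707 on the minus strand in the table. Its lowest, median and highest FPKM were 11, 17.0 and 24.6 among the controls and 20.4, 26.8 and 39.6 among the treadmill libraries. Catgut group 1 had 20.4, 25.7 and 48.6, and catgut group 2 had 21.8, 28.1 and 33.0. Of the 8 genes it had the smallest SE in each comparison with control. The log2FC was 0.68 in the treadmill group (SE 0.20, exact permutation p = 0.0281, edgeR adjusted p = 0.410), 0.72 in catgut group 1 (SE 0.22, edgeR adjusted p = 0.348) and 0.61 in catgut group 2 (SE 0.18, edgeR adjusted p = 0.140). The ratios of means, 1.56, 1.63 and 1.51, lay just past the criterion of 1.5. Without treadmill replicate 4 the ratio for the treadmill group was 1.47, without treadmill replicate 2 it was 1.44, and without control replicate 6 it was 1.45, all short of the criterion. Of 12 fits with 1 library left out, Jund missed the criterion in 3 for the treadmill group, 1 for catgut group 1 (ratio 1.43 without its replicate 5) and 6 for catgut group 2 (without control replicate 1, 5 or 6 or its own replicate 2, 5 or 6, with ratios from 1.40 to 1.48). Fosb, Fosl2, Junb and Atf3 passed it in all 12 fits of each comparison with control.

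Atf3, the stress-induced member, lies on chromosome 13 at 109817728 to 109849632 on the minus strand. Its lowest, median and highest FPKM were 0.711, 1.72 and 8.38 in the control group, 3.41, 9.05 and 24.1 in the treadmill group, 3.65, 13.4 and 41.9 in catgut group 1 and 5.20, 12.7 and 29.9 in catgut group 2. Every library of the trained groups exceeded 5 of the 6 controls, whose second highest value was 2.45 FPKM. The overlap came from control replicate 2 alone.

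The log2FC of Atf3 was 2.07 in the treadmill group (SE 0.62, exact permutation p = 0.0108, edgeR adjusted p = 0.410), 2.50 in catgut group 1 (SE 0.67, adjusted p = 0.302) and 2.44 in catgut group 2 (SE 0.60, adjusted p = 0.0899). Without control replicate 2 these were 2.90, 3.32 and 3.27, with an edgeR adjusted p of 0.0738, 0.0679 and 0.00891. In catgut group 1, replicate 5 at 41.9 FPKM was far above the next library at 15.0, and without it the log2FC was 1.95. With limma on log2(FPKM + 1), Atf3 and Fosb were called in catgut group 2 against control at an adjusted p of 0.05.

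**Figure D3:**
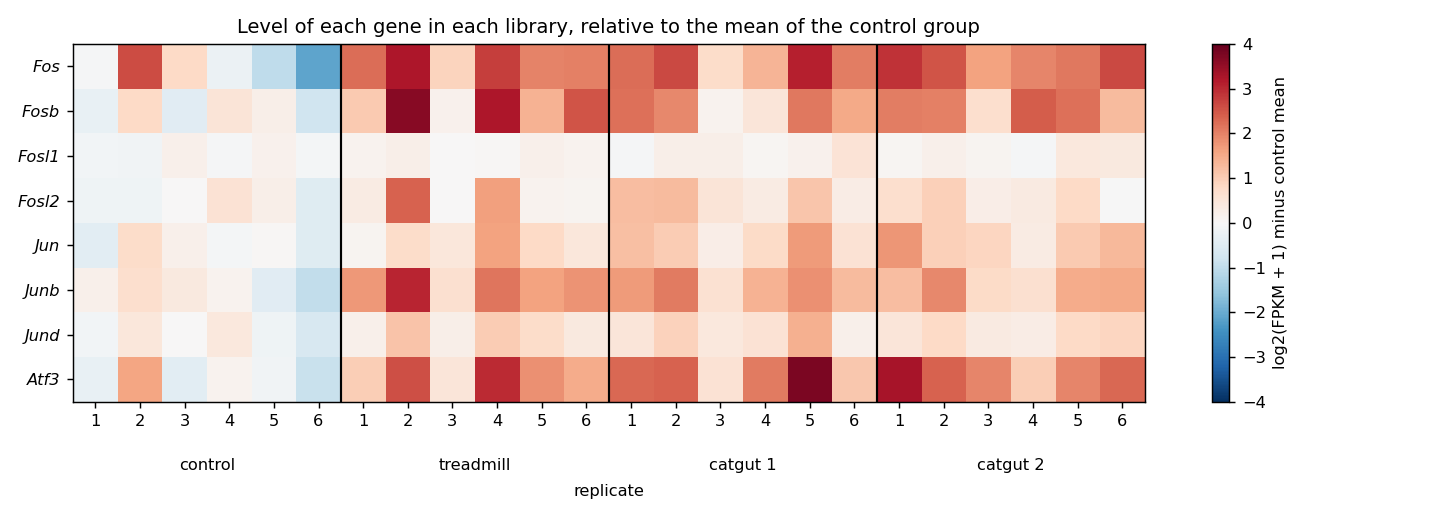
Difference of log2(FPKM + 1) from the control mean, coloured from blue (lower) to red (higher), for each gene (rows) in each library (columns, by group and replicate). Control replicate 2 is red for Fos and Atf3, and treadmill replicate 3 is paler than the other treadmill libraries in most rows.

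Most members were high or low in the same libraries of a group, with Fosl1 the exception. Treadmill replicate 3, the library with the highest liver marker sum, was among the 2 lowest of its group for all 8 genes. Treadmill replicates 2 and 4 were among the 2 highest for 7 genes each. Control replicate 6 was among the 2 lowest controls for 7 genes. In catgut group 1, replicates 2 and 5 were among the 2 highest for 6 genes each and replicate 3 among the 2 lowest for 6. Control replicate 2, the control with the highest liver marker sum, was among the 2 highest controls for 6 genes.

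Across the 24 libraries the closest pair of members was Jun and Atf3, with a Spearman rho of 0.92 and a Pearson r of 0.90 after removal of the group means. Fos followed Atf3 (rho 0.89) and Junb (rho 0.83) more closely than Fosl2 (rho 0.57). Fosl1 had rho between 0.23 and 0.41 with the other members, and after removal of the group means its r with them lay between -0.13 (Atf3) and 0.19 (Junb). These values share libraries and depth and are a description.

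By FPKM, Fos made up a median of 16.6% of the summed FPKM of the 8 genes in the control group, against 30.1%, 31.2% and 33.6% in the treadmill group, catgut group 1 and catgut group 2. Jun made up 43.1% in the control group and 30.7%, 35.4% and 36.1% in the trained groups. The share of Jund was 16.4% in the control group and 8.74%, 9.40% and 9.73% in the trained groups. Fos per Jun, a ratio of FPKM, had a median of 0.403 among the controls, with a range of 0.101 to 1.37. The median was 0.986 among the treadmill libraries (range 0.511 to 2.19), and 0.885 and 0.898 in catgut groups 1 and 2 (ranges 0.520 to 1.16 and 0.638 to 1.18). No test was made of these shares. The control range of Fos per Jun covered the medians of all trained groups. The treadmill medians of the Jun and Jund shares lay just under the lowest control, at 32.2% and 8.98%.

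Catgut group 1 against treadmill and catgut group 2 against treadmill ask whether levels differed between trained rats with and without the embedding. They share the treadmill libraries, and without an untrained catgut group they cannot show a changed response to training. No member passed either rule in either comparison. By the criterion 3.12% and 3.76% of all genes passed, by an adjusted p in edgeR 0.0474% and 0.237%, and the count of members with an unadjusted p under 0.05 was 0 in both, against 6.93% and 10.7% of all genes. DESeq2 and limma also gave 0 members at an adjusted p of 0.05. Of all 14772 genes DESeq2 called 139 and 309, and limma on log2(FPKM + 1) called 3 and 21. For Fos the log2FC in catgut group 1 was -0.14 (95% interval -0.99 to 0.70), and that in catgut group 2 was 0.03 (-0.68 to 0.75). For Fosb it was -0.97 (-2.35 to 0.40) and -0.63 (-1.89 to 0.63). These intervals are wide and hold both a large difference and none.

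Jun had a log2FC against treadmill of 0.19 (95% interval -0.42 to 0.81) with catgut group 1 and of 0.33 (-0.33 to 0.99) with catgut group 2. Jund had the narrowest intervals of the 8, 0.04 (-0.42 to 0.50) and -0.06 (-0.45 to 0.33). Atf3 had 0.42 (-0.81 to 1.66) and 0.38 (-0.69 to 1.45). The direction of these genes was therefore not resolved. Fosl1 had 0.22 (-0.42 to 0.87) and 0.23 (-0.43 to 0.90), and Fosl2 had -0.26 (-1.45 to 0.93) and -0.71 (-1.89 to 0.46).

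Junb came nearest to a difference among the trained groups. Its log2FC against treadmill was -0.44 for catgut group 1 (95% interval -1.14 to 0.25) and -0.67 for catgut group 2 (-1.35 to 0.01). In edgeR the latter had an unadjusted p of 0.0542 and an adjusted p of 0.478. The exact permutation p was 0.377 and 0.162 (n = 6 against 6). The mean FPKM was 73.3 ± 42.4 in the treadmill group, 52.9 ± 17.5 in catgut group 1 and 45.3 ± 15.4 in catgut group 2. Treadmill replicate 2, at 153 FPKM, widened the treadmill spread, and without it the log2FC was -0.19 and -0.43. Without treadmill replicate 3 it was -0.61 and -0.83, past the criterion in both.

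Catgut group 2 against catgut group 1 asks what adding Fei Shu changed. No member passed either rule, with 1.25% of all genes past the criterion and 0.00677% past an adjusted p of 0.05 in edgeR. DESeq2 and limma called 0 members, where they called 8 and 2 of all 14772 genes. In edgeR 0 members had an unadjusted p under 0.05, against 3.26% of all genes. The log2FC of the members lay between -0.47 (Fosl2, 95% interval -1.21 to 0.28) and 0.33 (Fosb, -0.66 to 1.33). For Atf3 it was -0.05 (-1.22 to 1.12) and for Jund -0.10 (-0.53 to 0.33).

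By mean FPKM the order for Fos was treadmill group, catgut group 2, catgut group 1 and control group, and the same order held for Fosb. For Jun it was catgut group 2, catgut group 1, treadmill group and control group, and for Atf3 and Fosl1 catgut group 1, catgut group 2, treadmill group and control group. For Junb and Fosl2 it was treadmill group, catgut group 1, catgut group 2 and control group, and for Jund catgut group 1, treadmill group, catgut group 2 and control group. No difference between neighbours above the control group passed either rule for any member. The step from the control group to its neighbour passed the criterion for Fosb, Fosl2, Jun, Junb, Jund and Atf3, but not for Fos or Fosl1.

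Other immediate-early genes were counted from a list of 39 tested genes. In treadmill against control 25 were higher and 0 lower by the criterion (median log2FC 1.13, against 0.00 over all genes tested). That is 64.1% of the list, against 2.85% of all genes. An adjusted p of 0.05 in edgeR, reached by 0.0542% of all genes, was passed by 4 of the list. These were Ccn1, Arc, Egr3 and Ier2. Ccn1, which encodes a matricellular protein, had a mean of 35.0 FPKM in the control group and 124 in the treadmill group (log2FC 1.86, SE 0.22, edgeR adjusted p = 0.0126). Arc, best known for its part at synapses, had means of 1.37 and 13.6 FPKM (log2FC 3.36, SE 0.42, edgeR adjusted p = 0.0126). The zinc-finger factor Egr3 had means of 0.307 and 3.24 FPKM (log2FC 3.38, SE 0.44, edgeR adjusted p = 0.0164). These companions thus passed a threshold that no member passed in the same fit.

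In catgut group 1 against control 23 of the 39 were higher and 0 lower by the criterion, with a median log2FC of 1.17. These 23 are 59.0% of the list, against 4.62% of all genes. Arc alone of the list passed an adjusted p of 0.05 in edgeR (log2FC 3.45, adjusted p = 0.0128), against 0.0203% of all genes. In catgut group 2 against control 23 were higher and 0 lower, with a median log2FC of 1.13, or 59.0% of the list against 5.95% of all genes. The adjusted p was passed by 12 of the list, against 0.508% of all genes. The 12 were Arc, Ccn1, Csrnp1, Dusp5, Egr1, Egr2, Egr3, Nr4a1, Nr4a2, Plk3, Sik1 and Zfp36. Dusp5, a phosphatase of ERK, had a mean of 0.340 FPKM in the control group and 1.39 in catgut group 2 (log2FC 2.05, edgeR adjusted p = 0.00461). Against treadmill the list had 0 higher and 1 lower by the criterion in catgut group 1 and 0 higher and 2 lower in catgut group 2. That is 2.56% and 5.13% of the list, near the 3.12% and 3.76% of all genes. In these comparisons 21 and 19 of the 39 had a log2FC above 0.

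Genes known as AP-1 targets were counted from a list of 28 tested genes. By the criterion 8 were higher and 0 lower in the treadmill group, 12 and 0 in catgut group 1 and 9 and 1 in catgut group 2, all against control. In either direction that is 28.6%, 42.9% and 35.7% of the list, against 2.85%, 4.62% and 5.95% of all genes. Plaur, the urokinase receptor, passed an adjusted p of 0.05 in edgeR in catgut group 2, as did 0.508% of all genes. Its means were 1.26 FPKM in the control group and 2.58 in catgut group 2 (log2FC 1.03, SE 0.18, edgeR adjusted p = 0.0392). In the other 2 comparisons 0 of the list passed, against 0.0542% and 0.0203% of all genes. Ptgs2, which encodes the inducible cyclooxygenase, had means of 0.0653 FPKM in the control group, 0.710 in the treadmill group and 0.383 in catgut group 1, with an edgeR adjusted p of 0.388 and 0.112.

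Of 42 tested enzymes and factors that act on Fos and Jun, 0 were higher by the criterion in any of the 3 comparisons with control, and 1, 0 and 1 were lower in the treadmill group, catgut group 1 and catgut group 2. That is 2.38%, 0% and 2.38% of the list, against 2.85%, 4.62% and 5.95% of all genes. An unadjusted edgeR p under 0.05 was found for 3, 4 and 9 of the 42, and for 9.12%, 9.84% and 16.4% of all genes. The median log2FC was 0.01, -0.02 and -0.03. Srf, which encodes serum response factor, had a mean of 15.7 FPKM in the control group and 19.6 in the treadmill group (log2FC 0.35, SE 0.07, edgeR adjusted p = 0.197), a ratio under 1.5.

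Among 26 other tested bZIP genes 2, 5 and 2 were higher and 0 lower by the criterion against control. That is 7.69%, 19.2% and 7.69% of them, against 2.85%, 4.62% and 5.95% of all genes. Maff, a small Maf protein without an activation domain that also stands in the immediate-early list, had 2.74 FPKM in the control group and 5.94, 9.79 and 5.87 in the treadmill group, catgut group 1 and catgut group 2 (edgeR adjusted p = 0.484, 0.189 and 0.0711). Of 20 genes of the stress response in which Atf3 takes part, 1, 1 and 1 were higher and 2, 1 and 1 lower. In either direction that is 15%, 10% and 10% of the list, against the same shares of all genes. The gene that was higher in each was Ppp1r15a, which encodes a phosphatase subunit that reverses the translation block of that response, at 30.5 FPKM in the control group and 57.1, 63.4 and 58.9 in the trained groups.

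**Figure D4:**
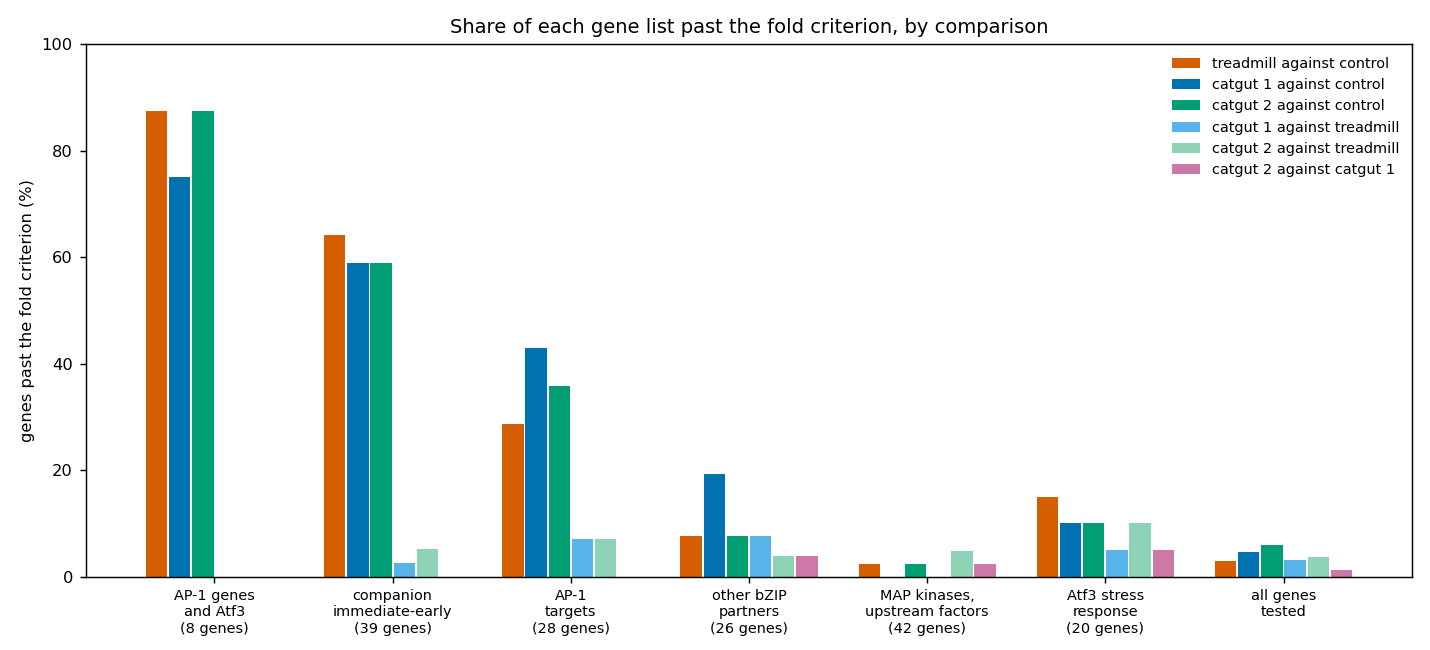
Percentage of the tested genes of each list past the fold criterion in either direction (bars, 1 colour per comparison), beside all genes tested. In the 3 comparisons with control the bars of the 8 members stand at 75.0 to 87.5%, while those of all genes tested stay between 2.85 and 5.95%.

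Levels over the 24 libraries were ranked against each member for 9498 genes whose mean FPKM was 1 or more. The nearest to Fos was Btg2 (Spearman rho 0.93), followed by Dusp1 and Ppp1r15a (both 0.90). The nearest to Atf3 was Klf4 (0.93), to Jund Klf2 (0.92), to Junb Rgs2 (0.91), to Jun Hspa1b (0.90), to Fosl2 Gem (0.89) and to Fosb Klf4 (0.82). Fosl1 was too low for this ranking. The second nearest to Jun was Hspb1 (0.89), and both Hspa1b and Hspb1 encode heat shock proteins. These values share libraries and depth with those above.

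The labels do not give the sex of the rats. Transcripts of 2 Y-linked genes summed to over 1 FPKM in 3, 3, 3 and 2 libraries of the control group, treadmill group, catgut group 1 and catgut group 2. Within the libraries with them, Fos had a mean of 9.57 FPKM in the control group and 97.9 in the treadmill group (n = 3 each), and within those without them 57.8 and 107. Junb had means of 13.4 and 66.3 FPKM with them and 23.99 and 80.3 without, and Atf3 1.68 and 14.1 with them and 3.77 and 8.74 without. The treadmill mean was thus the higher in both kinds of library for all 3 genes. With 3 against 3 libraries an exact test cannot go below 0.10, so none was made. With the Y-linked level as a covariate, 7, 7 and 7 members passed the criterion against control in the treadmill group, catgut group 1 and catgut group 2.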

How the data were processed

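Per the labels and the study's methods, polyadenylated RNA from 24 quadriceps samples was sequenced in pairs on an Illumina NovaSeq. The submitters' processing notes name HISAT2 2.0 and StringTie 1.3.0, and the genome build is not given in the sources used here. The authors deposited 1 table with a count and an FPKM for each gene and library. The deposited counts were whole numbers, and how they were made, directly or from coverage, is not given in the sources used here. FPKM, as the authors deposited it, is scaled by transcript length and library size. The table's coordinates carry no build name.

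Counts were tested as deposited with edgeR 4.0.16 in R 4.3.3 (TMM scaling, quasi-likelihood test, each pair of groups fitted alone), on genes whose mean FPKM was 0.1 or more. Benjamini-Hochberg adjustment ran over all 14772 genes tested. Exact permutation tests used log2(FPKM + 1). The code was tested on simulated data with known changes. Alternatives were limma 3.58.1 on log2(FPKM + 1) and log2(FPKM + 0.1), DESeq2 1.42.0, other scalings and filters, 1 fit over all 4 groups, a replicate block, a Y-linked covariate, and each library left out in turn. A permutation test with a pseudocount of 0.1 was chosen after seeing the data. The members, gene lists and tests were chosen with earlier results of these data known, so none of them is independent evidence.

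All 8 members are named. For each member whose mean FPKM was 1 or more, the 3 genes with the highest Spearman correlation over the 24 libraries may be named. List members are named where they pass an adjusted p of 0.05 or are among the 3 smallest p of their list in that comparison. The labels do not say more of the replicates than that they are separate samples, and the methods give 6 rats per group. Replicate numbers are not stated to pair the samples, and the samples were treated as unpaired. Over 36 pairs of same-numbered libraries the correlation of deviations ran from -0.447 to 0.273, and 8 were over 0.1. A correlation over all genes tested cannot show whether samples were paired. Total counts, from 45945938 to 78278080, set the counting precision.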

Additional observations from a re-analysis of the deposited data

Results flagged for a closer look

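In 4 cases of 32 groups of 6 libraries checked, the highest library stood far above the rest of its group by Dixon's test. The rate of 1 in 20 groups flagged by chance holds for independent, normally spread values. These were untransformed FPKM from shared libraries, so the count of flags cannot be set against that rate. Fos in control replicate 2 was 121 FPKM against 33.8 in the next control, and Atf3 in the same library was 8.38 FPKM against 2.45. That library also had the liver marker sum of 244 FPKM described above, whose part in these values was not tested. Jun in treadmill replicate 4 was 160 FPKM against 91.1 in the next treadmill library. Atf3 in catgut group 1 replicate 5 was 41.9 FPKM against 15.0 in the next library of its group.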

How the results depend on the processing

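For treadmill against control, the count of members at an adjusted p of 0.05 was 0 in edgeR and 2 in DESeq2 (Fosb and Junb). It was 1 (Junb) in 1 fit over all 4 groups, and it ran from 0 to 1 with each library left out. Over all genes edgeR called 8, DESeq2 112 and the fit over all 4 groups 15. The count of members past the criterion was 7 and ran from 4 to 7, with 4 without treadmill replicate 4 (Fosb, Fosl2, Junb and Atf3). For catgut group 1 against control, the adjusted count of 0 members was 5 in DESeq2, which called 162 of all genes against 3 in edgeR. It was 0 with any library left out, and the criterion count of 6 ran from 5 to 7. For catgut group 2 against control, the adjusted count of 0 members was 5 in DESeq2, 2 in limma on log2(FPKM + 1) and 1 in limma on log2(FPKM + 0.1). Those fits called 695, 70 and 65 of all genes, against 75 in the main fit. With a library left out the count was 0 to 4 members (3 without control replicate 2, 4 without catgut group 2 replicate 4). These 2 fits called 80 and 492 of all genes. The criterion count of 7 members in catgut group 2 against control ran from 5 to 8. For catgut group 2 against treadmill, the criterion count of 0 was 1 (Junb) without a filter on low values, in DESeq2, in 1 fit over all 4 groups, and without treadmill replicate 3 or catgut group 2 replicate 2. For catgut group 1 against treadmill it was 1 (Junb) without treadmill replicate 3. The causes were not tested. No member's value that passed the criterion changed direction in any alternative.

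With the replicate number as a block, the criterion count for catgut group 2 against treadmill was 1 (Junb) against 0, and the block moved no other count by over 1.5 times. The numbers share no stated pairing.

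For the log2 fold changes of members past the criterion, 436 values over the alternatives kept their direction and their side of an adjusted p of 0.05, and 24 kept their direction and newly passed it. The other scalings, filters and the division of counts by 4 left the adjusted counts of members at 0. Depth limits Fosl1 most, with 18 to 91 counts per library.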
